A study of Homo sapiens with 6 samples.

Results

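FOXO transcription factors and the insulin signalling genes they feed back on were read here through 7 genes: the insulin receptor INSR, its adaptor IRS2, the factors FOXO1, FOXO3 and FOXO4, and the FOXO target genes CCNG2 and CITED2. All probe sets that the platform annotation assigns to 1 of these symbols alone were taken, which gave 23 of 54613 probe sets on the array. The genes were chosen with the difference between treated and control arrays known, so their changes are given as a description. No p-value of a member is used as evidence of a change. The experiment compared K562 cells, an established line from a chronic myelogenous leukaemia, after 3 h with DMSO, the vehicle, or with 25 nM of CA, which is cortistatin A by the series title, a compound known to block CDK8 and CDK19, the kinases of the Mediator complex. Each condition had 3 arrays, from cells plated in triplicate, and both conditions share the line, the medium and the exposure time. The findings rest on this 1 line, and any p-value measures only the spread between these wells. As in any bulk RNA sample, a change in the share of cells with a transcript cannot be told apart from a change in its level per cell.

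Insulin or a related growth factor activates a receptor tyrosine kinase, the receptor phosphorylates IRS adaptors, and these recruit PI3 kinase, which leads to activation of the kinase AKT. AKT phosphorylates FOXO proteins, which then bind 14-3-3 proteins and stay in the cytoplasm. When AKT activity is low, FOXO proteins enter the nucleus and activate genes that include INSR and IRS2, a feedback that restores sensitivity to insulin, and CCNG2 and CITED2. In K562 cells the BCR-ABL1 fusion kinase also feeds PI3 kinase and AKT. Most of this control acts on FOXO protein, which arrays of RNA do not measure.

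FOXO proteins bind a forkhead core, GTAAACA, and the related core of the insulin response element, CAAAACA. These letters were searched on both strands in RefSeq promoter windows of 300 bases (GRCh38.p14, 250 bases before to 50 after a start), and the motifs do not share a match. All 7 genes had a window, 12 in all. GTAAACA was in 1 of the 12 windows, against 3.42% of 35116 windows of all genes, and CAAAACA was in 1 of the 12, against 4.92%. The matches are shown with the 7 matched bases in capitals, because they are the places where a member's own promoter window holds the letters of a FOXO core.
FOXO4, GTAAACA at bases 24 to 30 after the start, chrX:71095863-71095891, plus strand: cccggcgagtgGTAAACAgagacgtcagg
IRS2, CAAAACA read on the opposite strand, from base -40 to -34 before the start, chr13:109786606-109786634, minus strand: gagtcacatgtTGTTTTGctcttcttagt
The windows of INSR, FOXO1, FOXO3, CCNG2 and CITED2 did not hold these letters. A match is a description of the sequence and no measurement of binding.

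Values are log2 RMA signals, a scale on which 1 unit is a doubling and arrays are set to a common distribution, and they can be compared between arrays for 1 probe set but not between probe sets. Only probe sets with a 6-array mean of at least 3.49, the median of such means, were tested, which left 27307. Of the 23 member probe sets 14 passed, covering 6 of the 7 genes. The one closest above was 202724_s_at of FOXO1, with a mean of 3.51, and the one closest below was 226216_at of INSR, with 3.38. Medians of the 6 arrays lay between 3.47 and 3.52, and all pairs of arrays correlated at about 0.997. On principal component 1, with 26.2% of the variance, the DMSO arrays were at -5.89, -9.98 and -7.62. CA array 1 was at -1.41, nearer to them than to CA arrays 2 and 3, at 11.6 and 13.3. On principal component 2, with 24.4% of the variance, CA array 1 was at -19.0 and the others were at 0.34 to 7.20. The 3' minus 5' log2 signal of the actin control probe sets was 1.40 to 1.49 on DMSO arrays and 1.14 to 1.31 on CA arrays, and its part in the values that follow was not tested. All 7 K562 marker genes with a single-symbol probe set were above the filter, with HBE1, an embryonic globin, at 13.3 and TFRC, the transferrin receptor, at 12.1 in DMSO. Of 13 markers of lymphoid, monocytic, epithelial, fibroblast or liver cells 7 were also above it, including EPCAM at 10.5, CD3D at 9.08 and LYZ at 8.90, each at nearly the same level in CA (10.4, 9.05 and 8.86). CD14, MS4A1, CDH1, COL3A1, ALB and APOA1 were below it.

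In CA, 3 of the 4 FOXO3 probe sets lay higher on every array than on any DMSO array. Their group means differed by 0.18 to 0.27 log2 units, and the nearest arrays of the groups by 0.0067 to 0.15. Both tested FOXO1 probe sets were slightly lower, FOXO4 and IRS2 were nearly level, and INSR was below the filter on all 5 of its probe sets. CCNG2 varied more between wells than between conditions. The 3 CITED2 probe sets disagreed in sign. None of the 14 tested member probe sets passed an adjusted p of 0.05 in limma, where 0.0952% of all tested probe sets did, and 3 of 14 had an unadjusted p under 0.05, against 9.31% overall. CA and DMSO arrays did not overlap for 4 probe sets with CA above and 2 with CA below, where the shares over all tested probe sets were 7.09% and 8.52%. As the members were picked on this contrast, nothing is read from these counts. The median change of the 14 was 0.03, beside -0.01 over all tested probe sets.

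**Figure D1:**
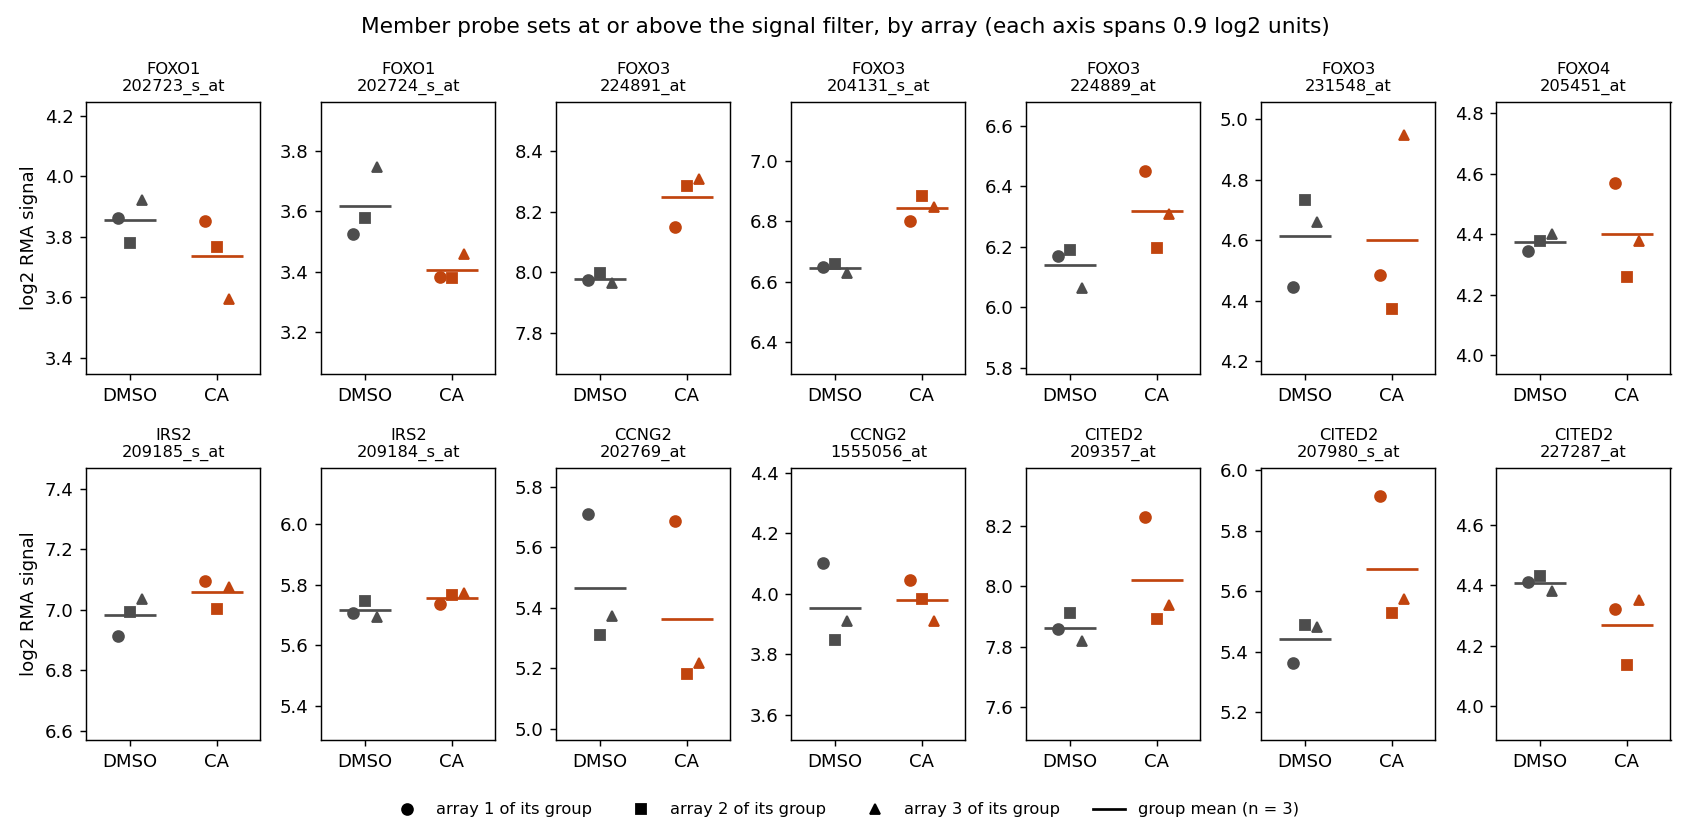
Log2 RMA signal (vertical axes, each spanning the same height) of the 14 member probe sets at or above the filter on DMSO and CA arrays, with a marker for each array and a line for the mean of 3. FOXO3 224891_at and 204131_s_at show the widest separations, 0.15 and 0.14 between the nearest arrays of the groups, while CA array 1 stands above the other CA arrays for CITED2 209357_at and 207980_s_at.

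INSR encodes the receptor itself. Its 5 probe sets had means between 2.14 and 3.38, all below the filter, and their arrays overlapped between conditions. The changes ran from -0.18 on 207851_s_at to 0.19 on 226212_s_at, and the latter was 0.05 without CA array 1. On 207851_s_at the groups only touched, with DMSO array 1 and CA array 2 at the same value. Its change stayed between -0.23 and -0.12 with any single array left out. On 226216_at, the brightest, the DMSO arrays read 3.37, 3.29 and 3.42 and the CA arrays 3.40, 3.45 and 3.33. No direction is therefore given for the receptor transcript.

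IRS2 encodes the adaptor that carries the signal from the receptor to PI3 kinase, and its transcript is a known FOXO target. On 209185_s_at the DMSO arrays read 6.91, 6.99 and 7.04 and the CA arrays 7.10, 7.0 and 7.08. The groups overlapped, since CA array 2 lay below DMSO array 3, and the change was 0.08 (SE 0.05, n = 3 per group). On 209184_s_at the DMSO arrays read 5.71, 5.75 and 5.69 and the CA arrays 5.74, 5.77 and 5.77. Here CA array 1 lay below DMSO array 2, and the change was 0.04 (SE 0.04). Among members with more than 1 tested probe set, IRS2 had the closest fitted changes, and with any single array left out its changes stayed between 0.03 and 0.10.

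FOXO3 is the FOXO factor best known in blood cells, where it guards stem cells and red cell precursors against oxidative stress. On 224891_at the DMSO arrays read 7.98, 8.00 and 7.96 and the CA arrays 8.15, 8.29 and 8.31. All CA arrays lay above all DMSO arrays, and the means of 7.98 ± 0.02 and 8.25 ± 0.08 (SD, n = 3) differed by 0.27 (SE 0.05), or 1.21-fold. This change was number 373 from the top among the 27307 tested probe sets. On 204131_s_at the DMSO arrays read 6.65, 6.66 and 6.63 and the CA arrays 6.80, 6.88 and 6.85. The groups were again apart, with a change of 0.20 (SE 0.04), and the DMSO arrays spread by an SD of 0.02.

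The other FOXO3 probe sets were less clear. On 224889_at the DMSO arrays read 6.17, 6.19 and 6.06 and the CA arrays 6.45, 6.20 and 6.31. The lowest CA array lay only 0.0067 above the highest DMSO array, so this separation is thinner than the spread within either group, and the change of 0.18 (SE 0.08) became 0.11 without CA array 1. On 231548_at the DMSO arrays read 4.45, 4.73 and 4.66 and the CA arrays 4.49, 4.37 and 4.95. These overlapped widely, with a change of -0.01 (SE 0.16) whose sign turned when single arrays were left out, between -0.18 and 0.10.

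A further 3 probe sets carry FOXO3 together with FOXO3B, a near copy of the gene, and were left out because they name more than 1 gene. Whether the probes of 204131_s_at also match that copy was not examined. With any single array left out, the change stayed between 0.24 and 0.32 on 224891_at and between 0.18 and 0.22 on 204131_s_at. Which FOXO3 probe sets passed the adjusted p of 0.05 depended on the fit, and none did in the main fit. With limma's trend option, which lets the variance prior change with signal, 224891_at passed (limma adjusted p = 0.0116), where 1.04% of all probe sets did. With the filter raised to the 75th percentile, 224891_at and 204131_s_at passed (limma adjusted p = 0.0481 and 0.0495), where 1.19% did. As FOXO3 was chosen on this contrast, these p-values show only how the fits differ, and nothing about FOXO3 is read from them.

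FOXO1 is the main insulin-regulated FOXO factor of liver and fat. Both of its tested probe sets had means close to the filter level, 3.80 and 3.51. On 202724_s_at the DMSO arrays read 3.53, 3.58 and 3.75 and the CA arrays 3.38, 3.38 and 3.46. All CA arrays lay below all DMSO arrays, by 0.07 between the nearest, and the change was -0.21 (SE 0.07). On 202723_s_at the DMSO arrays read 3.86, 3.78 and 3.92 and the CA arrays 3.85, 3.77 and 3.60. The arrays overlapped, and the change of -0.12 (SE 0.08) was carried largely by CA array 3, without which it was -0.05. The third, 228484_s_at, was below the filter with 2.60 in DMSO and 2.69 in CA.

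FOXO4 encodes the smallest of these factors and has 1 probe set, 205451_at. The DMSO arrays read 4.34, 4.38 and 4.40, within a range narrower than that of the CA arrays, which read 4.57, 4.26 and 4.38. The CA arrays thus lay on both sides of DMSO, and the change was 0.03 (SE 0.08), or between -0.06 and 0.10 with an array left out. Of the 3 FOXO genes, then, FOXO3 had higher values in CA on its 3 brighter probe sets, FOXO1 lower values near the filter, and FOXO4 no separation. The difference between FOXO3 and FOXO1 was not tested, since both changes were known when they were chosen.

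**Figure D2:**
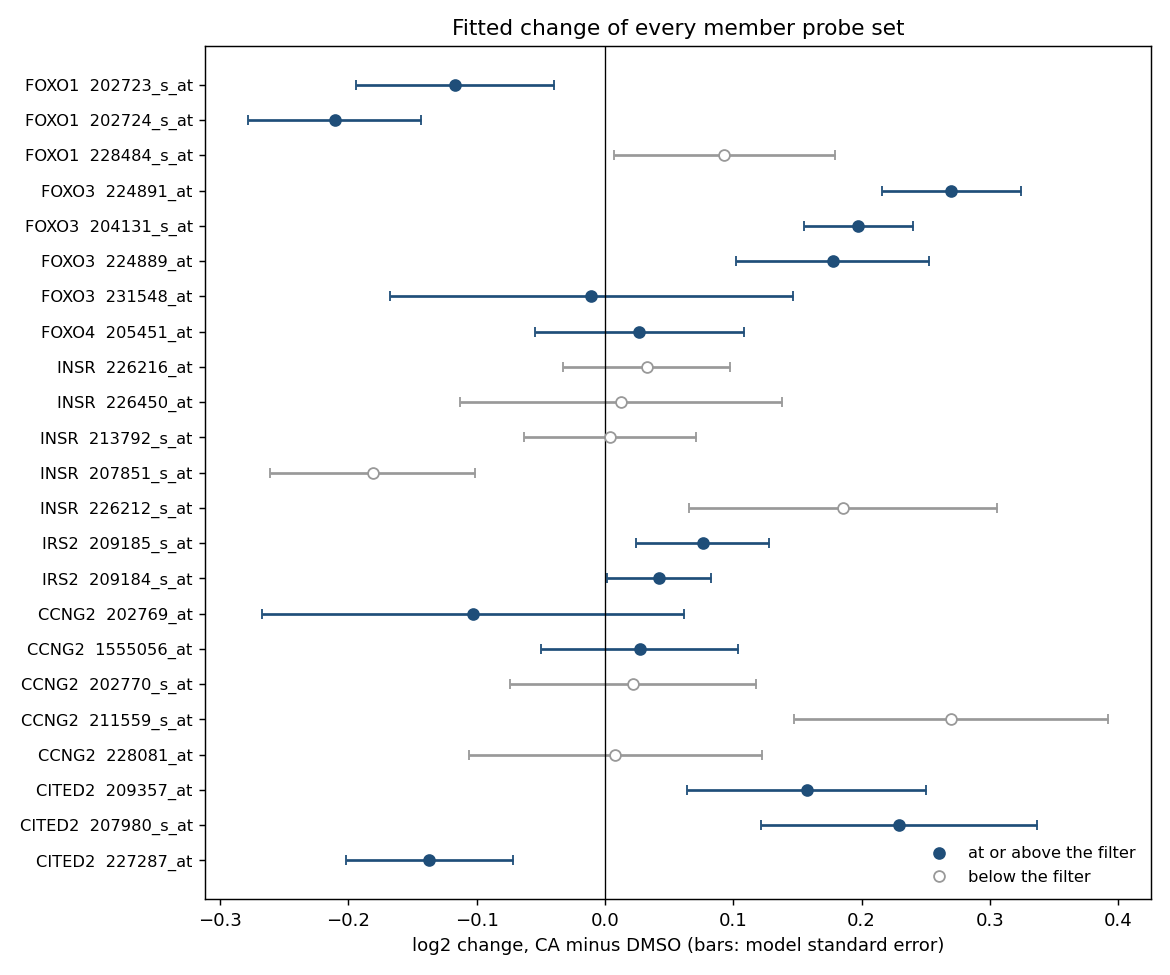
Log2 change, CA minus DMSO (horizontal axis), of all 23 member probe sets with the standard error of the model as bars. Filled points passed the signal filter and open points did not. Bars of filled points come from the fit of the filtered probe sets, and those of open points from a fit without the filter. The 3 brighter FOXO3 probe sets sit between 0.18 and 0.27, both filled FOXO1 points are below 0, and the CITED2 points lie on both sides of 0.

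CCNG2 encodes cyclin G2, an unconventional cyclin that accompanies cell cycle arrest and is a standard readout of FOXO activity. On 202769_at the DMSO arrays read 5.71, 5.31 and 5.37 and the CA arrays 5.69, 5.18 and 5.22. Array 1 of each condition was the high one, and the other CA arrays lay below all DMSO arrays. The change of -0.10 (SE 0.16) was smaller than the spread between wells, an SD of 0.22 in DMSO and 0.28 in CA. With the replicate number as a block its SE was 0.05, but the labels do not state whether these numbers pair the wells. The change was -0.26 without CA array 1 and 0.02 without DMSO array 1. On 1555056_at the DMSO arrays read 4.10, 3.85 and 3.91 and the CA arrays 4.05, 3.98 and 3.91, a change of 0.03 (SE 0.08) with overlapping arrays. The other 3 probe sets were below the filter. Among them 211559_s_at had CA arrays above DMSO, with means of 2.74 in DMSO and 3.00 in CA. The change was 0.27 (SE 0.12, from a fit without the filter), and 0.17 without CA array 1.

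CITED2 encodes a transcriptional co-regulator that binds CBP and p300 and restrains HIF-1, and it maintains blood stem cells. On 209357_at, its brightest probe set, the DMSO arrays read 7.86, 7.91 and 7.82 and the CA arrays 8.23, 7.89 and 7.94. CA array 1 alone was well above DMSO, and CA array 2 lay within the DMSO range. On 207980_s_at the DMSO arrays read 5.36, 5.49 and 5.48 and the CA arrays 5.91, 5.53 and 5.57. All CA arrays were above DMSO here, again with CA array 1 highest. The changes were 0.16 (SE 0.09) and 0.23 (SE 0.11), and without CA array 1 they were 0.05 and 0.11.

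The remaining CITED2 probe set went the other way. On 227287_at the DMSO arrays read 4.41, 4.43 and 4.38 and the CA arrays 4.32, 4.14 and 4.35. All CA arrays lay below all DMSO arrays, by 0.03 between the nearest, with a change of -0.14 (SE 0.07) that was -0.07 without CA array 2. CITED2 is therefore reported with no direction. CA array 1 is also the array that stood apart across the whole table. It was the highest CA array on both brighter CITED2 probe sets, on FOXO3 224889_at and on both tested CCNG2 probe sets. The same held for FOXO1 202723_s_at, FOXO4 205451_at and IRS2 209185_s_at. CA array 1 was the lowest CA array on FOXO3 224891_at and 204131_s_at and on IRS2 209184_s_at, where leaving it out gave larger changes.

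**Figure D3:**
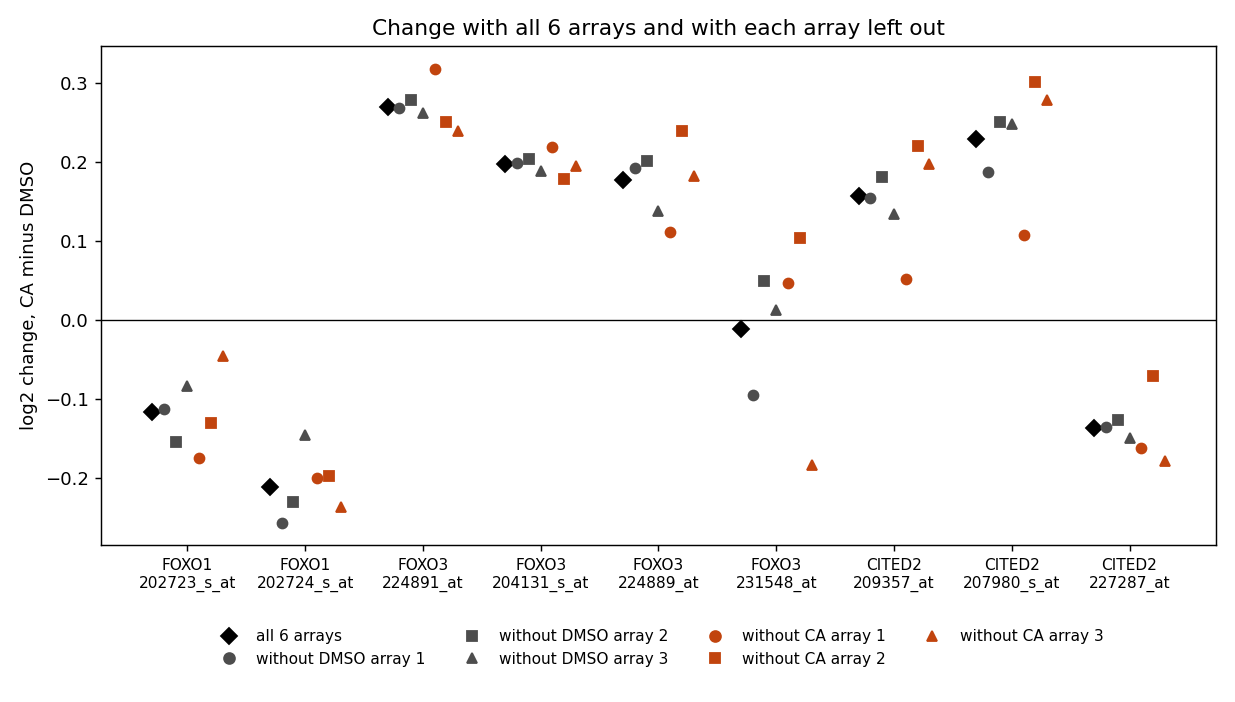
Log2 change, CA minus DMSO (vertical axis), of the tested FOXO1, FOXO3 and CITED2 probe sets with all 6 arrays (black) and with each array left out in turn. Without CA array 1 (orange circles) CITED2 209357_at moves from 0.16 to 0.05 and 207980_s_at from 0.23 to 0.11, while FOXO3 224891_at moves from 0.27 to 0.32.

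RMA cannot show a change shared by most transcripts. Scaling the arrays to the 3' probe sets of the added polyadenylated control RNAs would add 0.20 to every change and put the median of all tested probe sets at 0.19. Scaling to their 5' probe sets would add 0.04. On the 3' scale 224891_at of FOXO3 would be at 0.47, FOXO1 at -0.01 on 202724_s_at and 0.08 on 202723_s_at, and CITED2 227287_at at 0.06. On the 5' scale 202724_s_at and 202723_s_at of FOXO1 would be at -0.17 and -0.07, and CITED2 227287_at at -0.09. The lower FOXO1 and CITED2 values are thus lower relative to other transcripts. On an absolute scale their size depended on the control probe sets used, as did the sign of 202723_s_at and 227287_at. FOXO3 was higher on its 3 brighter probe sets under each scaling.

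By the smallest root mean square difference of centred values over the 6 arrays, the genes whose pattern was nearest to FOXO3 224891_at were IQCN and TLCD5, at 0.039 and 0.040 log2 units, among 12809 other genes whose median difference was 0.17. IQCN was at 4.10 in DMSO and 4.39 in CA (limma adjusted p = 0.161) and TLCD5 at 4.71 and 4.92 (limma adjusted p = 0.333). The likeness includes the step between DMSO and CA, by which FOXO3 was chosen. The brightest tested probe sets of the other members had overlapping arrays, and no neighbours were sought for them.

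The rest of the pathway was read from 5 lists of textbook genes, none of them a member. Each gene was represented by its brightest tested probe set, and 94 of 116 listed genes were measured. None of the 94 was called by limma at an adjusted p of 0.05, where 0.0859% of all 12810 measured genes were. At an unadjusted p under 0.05 there were 12, or 12.8%, against 8.61% of all measured genes.

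Of 20 measured other FOXO targets 0 were called and 5 had an unadjusted p under 0.05, of which 2 had higher and 3 lower values in CA. GADD45A, a stress protein that slows the cell cycle, was at 10.3 in DMSO and 10.6 in CA, a change of 0.32 (SE 0.04, limma adjusted p = 0.0817). BCL2L11 encodes BIM, a BCL2 family protein that triggers apoptosis and a known FOXO3 target. On its brightest probe set the DMSO arrays read 6.20, 6.20 and 6.32 and the CA arrays 6.90, 6.62 and 6.54. The groups were apart, with a change of 0.45 (SE 0.10, limma adjusted p = 0.279), and all 6 tested BCL2L11 probe sets had fitted changes above 0, from 0.03 to 0.45. With the trend option GADD45A (limma adjusted p = 2.06e-05) and BCL2L11 (limma adjusted p = 0.0231) passed, beside 1.23% of all genes. With the filter at the 75th percentile GADD45A passed (limma adjusted p = 0.00621), beside 1.21%.

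Other targets in the list had lower values. The cyclin-dependent kinase inhibitor genes CDKN1A and CDKN1B, which FOXO factors are known to activate, had changes of -0.21 (limma adjusted p = 0.343) and -0.17 (limma adjusted p = 0.453). SESN3, which restrains mTORC1, had -0.21 (limma adjusted p = 0.395), with a mean of 3.60, close to the filter level. These 3 genes were named after their values were seen. CAT, the catalase gene and the brightest of the list, had 0.03. The list held 7 fitted changes above 0 and 13 below, with a median of -0.03 beside -0.01 over all genes. Known FOXO targets thus had fitted changes of both signs, and the 9 listed genes below the filter included the liver and muscle targets G6PC1, PCK1, IGFBP1, FBXO32 and TRIM63.

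**Figure D4:**
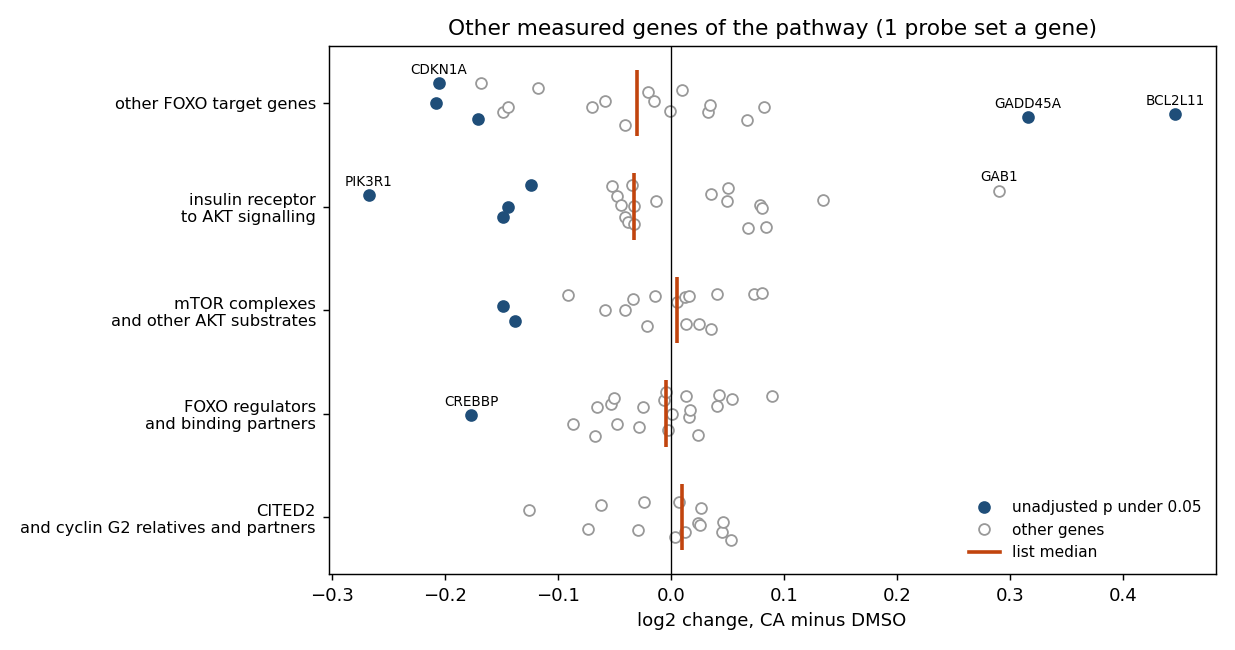
Log2 change, CA minus DMSO (horizontal axis), of the 94 measured genes in 5 pathway lists, 1 point a gene, with a vertical line at each list median; filled points had an unadjusted p under 0.05. The medians lie between -0.03 and 0.01, and BCL2L11 at 0.45 and GADD45A at 0.32 are the farthest to the right.

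Between the insulin receptor and AKT, 22 genes were measured, with 0 called and 4 at an unadjusted p under 0.05, all with lower values in CA. INPPL1, the phosphatase SHIP2 that removes a phosphate from the PI3 kinase product, had -0.14 and SH2B1, an adaptor of the receptor, had -0.12 (limma adjusted p = 0.405 and 0.407). PIK3R1, the regulatory subunit of PI3 kinase, had -0.27 (limma adjusted p = 0.519), and the docking protein gene GAB1 had 0.29 (limma adjusted p = 0.556). GRB2, the brightest, had -0.03, and the list median was -0.03. IRS1 and IRS4, the other adaptors of the IRS family in the list, were below the filter. Of 17 genes of the mTOR complexes and other AKT substrates 0 were called and 2 had an unadjusted p under 0.05, GSK3B at -0.14 and RPS6KB2 at -0.15 (limma adjusted p = 0.520 and 0.530), while RHEB, the brightest, had -0.02. The 3 tested GSK3B probe sets ran from -0.17 to 0.02, and the 8 of RHEB from -0.27 to 0.11. The median of that list was 0.01.

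Among 21 regulators and partners of FOXO proteins 0 were called and 1 had an unadjusted p under 0.05, the acetyltransferase gene CREBBP at -0.18 (limma adjusted p = 0.503). STK4, the kinase MST1 that phosphorylates FOXO proteins under oxidative stress, had -0.09 (limma adjusted p = 0.699), and the 14-3-3 gene YWHAQ, the brightest, had 0.02. Probe sets of the first 2 genes disagreed in sign. The 3 tested for CREBBP ran from -0.18 to 0.21, and the 3 for STK4 from -0.09 to 0.28. The list median was -0.0043. Of 14 relatives and partners of CITED2 and cyclin G2 0 were called and 0 had an unadjusted p under 0.05. GAK, a kinase that binds cyclin G, had -0.07 (limma adjusted p = 0.642), TFAP2A, a factor that CITED2 co-activates, had -0.13 (limma adjusted p = 0.720), and CCNG1, the close relative of CCNG2 and brightest of the list, had 0.05. The list median was 0.01.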

How the data were processed

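The authors deposited log2 RMA signals for 54675 probe sets on 6 Affymetrix Human U133 Plus 2.0 arrays, made with RMA in affy per the submitters' processing notes, with no version given. Per the labels' protocols, RNA was extracted by either of a pair of methods, not stated by sample, and labelled from 100 ng of total RNA. From these values 62 control probe sets were set aside. CA was compared with DMSO in limma 3.58.1 (lmFit and eBayes, under R 4.3.3), by a 2-sided test without a block and with Benjamini-Hochberg adjustment over 27307 probe sets. Symbols came from the platform annotation: 41091 probe sets had 1 symbol, 1801 several and 11721 none. Of those with 1 symbol, 41037 matched RefSeq by gene ID. Members, lists and rules were chosen with earlier results of these data known. Named were all member probe sets and, per list, the brightest gene and the called genes or, with none called, the 2 with the smallest p; other list genes were named after their values were seen. For a member with non-overlapping arrays on its brightest probe set, the 2 genes nearest in pattern were named. The fit was tested on simulated data. The number of arrays limits the precision: the median SE was 0.07. Alternatives were other filters, variance priors, normalisations, array weights, a replicate block, shared probe sets removed and each array left out.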

Additional observations from a re-analysis of the deposited data

How the results depend on the processing

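The number of probe sets called over the whole table was 26 and depended on the fit: 5 with no filter on dim probe sets, 162 with the filter at the 75th percentile, 285 with a variance prior that changes with signal (limma's trend option), 1 without shared probe sets, 3691 with 3' control scaling, and 2 to 5 with 1 array left out. Member probe sets called went from 0 to 2 with the 75th percentile filter, 1 with the trend option and 6 with 3' control scaling, which shifts all probe sets and called 13.5% of them. Tested member probe sets with a fitted change above 0 numbered 9, against 17 with no filter, where 23 were tested, and 5 without shared probe sets, where fewer were tested. Called genes among the other FOXO targets went from 0 to 1 with the 75th percentile filter, 2 with the trend option and 2 with 3' control scaling. With that scaling the counts were 3 between receptor and AKT and 1 in each of the other 3 lists. The causes were not tested.

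Samples with the same replicate number showed no clear common deviation (correlations of -0.07, 0.01 and 0.06). The best partner of CA array 3 was the DMSO array of the same number, and those of CA arrays 1 and 2 were not. With 6 arrays these values cannot exclude that the numbers pair the wells. With the replicate number as a block, limma called 0 probe sets, with 2485 at an unadjusted p under 0.05. Outside control scaling, none of the member changes moved by more than the SD within groups under any alternative run. For most of these runs no other outcome was possible, so no stability is read from it. Filters, variance priors, the replicate block and removal of shared probe sets leave a fitted change as it is. Leaving out 1 of 3 arrays cannot move a change by more than that SD. Of 339 member values under alternatives, 32 had the opposite sign to the reported one.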
